A study of Homo sapiens with 3 samples.

Results

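The S-phase replication genes are 40 protein-coding genes whose transcripts accumulate in cells that are about to copy, or are copying, their DNA. They were chosen by symbol from the deposited table of average expression, where all 40 were found among 32727 genes. Single cell RNA sequencing had been carried out on 3 human embryonal carcinoma (EC) lines, NCCIT, GCT27 and 2102EP, with 1 library for each line. EC is the malignant counterpart of pluripotent cells among germ cell tumors, and 2102EP is a line known to be nearly nullipotent. Every library came from the same treatment. The cells carried the lenti-MPHv2 activator construct, kept by hygromycin selection, received SOX17-lentiSAMv2 viruses that switch on the endogenous SOX17 gene by CRISPR activation, and were cultured with Activin A at 100 ng/ml, the WNT agonist CHIRON at 3 µM, FGF2 at 25 ng/ml and heparin at 1 µg/ml, renewed every 48 h, until day 8. The protocol is meant to move EC cells toward the yolk-sac tumor (YST) lineage. No library of untreated cells was analysed here, and 3 replicate cultures of a line had been pooled before sequencing.

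The deposited averages held 14 clusters of cells, numbered 0 to 13, made from 20844 cells of all 3 libraries together. The numbering follows the deposited table and need not be that used by the study in its text. Each value is a mean number of UMIs (unique molecular identifiers, counted transcripts) per 10000 UMIs of a cell, so each column sums to 10000. Because the averages pool the libraries, and because the clusters had been formed from these cells' expression, no replicate stands behind a value and no test was made. All differences between clusters below are descriptions. Libraries of this kind count transcript ends, so levels are compared between clusters for 1 gene, and not between genes.

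DNA replication is prepared in G1, when ORC, CDC6 and CDT1 load the MCM helicase onto origins. In S phase the helicase is switched on together with CDC45 and the GINS complex, primase lays down primers, and the clamp PCNA, loaded by replication factor C, holds the polymerases on the template. Ribonucleotide reductase and thymidylate synthase supply the nucleotides, histone chaperones package the new DNA, and checkpoint and repair proteins guard the forks. Most of these genes are classic targets of the E2F transcription factors, which are freed from retinoblastoma proteins by cyclin-dependent kinases at the G1/S transition. Genes of G2 and mitosis follow later and are largely controlled by the MuvB and B-MYB complexes at a different promoter element, the CHR. Pluripotent cells are known for a short G1 and for a large fraction of cells in S phase.

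Promoter windows of 300 bases, from 250 before to 50 after the annotated start, were matched by symbol in RefSeq (GRCh38.p14) for 31 of the 40 genes. No entry was matched for MCM4, MCM5, DSCC1, POLD3, RPA2, ATAD2, CCNE2, E2F8 and WDR76. The E2F core was searched on both strands as TTCCCGC or TTCGCGC or TTGCCGC or TTGGCGC. Some genes had several windows, and a gene was counted when any of them held the letters. The core was present for 27 of the 31 genes (87.1%), against 25.3% of 9314 expressed genes with a window and 15.3% of all 27305 genes of the promoter table. FEN1, NASP, SLBP and CDC45 were the members without these letters. A core that began no more than 100 bases before the start, or after it, was found for 24 of the 31 (77.4%), against 14.5% of the expressed genes. That limit of 100 bases was set with the data in hand. In 10 members a window held at least 2 cores.

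The following windows belong to the member with the widest range between clusters in each of 6 role groups, among those with an entry. They are shown because all 6 hold the E2F core, which stands in capitals on either strand, while POLA1 differs from the others in its order of clusters. The windows lie at chr16:85688905-85689204 (minus strand) for GINS2, chrX:24693668-24693967 (plus) for POLA1, chr2:10122318-10122617 (plus) for RRM2, chr10:94545538-94545837 (plus) for HELLS, chr12:4538640-4538939 (plus) for RAD51AP1 and chr1:212035498-212035797 (plus) for DTL, and each is written 5′ to 3′ in the direction of its gene.
GINS2: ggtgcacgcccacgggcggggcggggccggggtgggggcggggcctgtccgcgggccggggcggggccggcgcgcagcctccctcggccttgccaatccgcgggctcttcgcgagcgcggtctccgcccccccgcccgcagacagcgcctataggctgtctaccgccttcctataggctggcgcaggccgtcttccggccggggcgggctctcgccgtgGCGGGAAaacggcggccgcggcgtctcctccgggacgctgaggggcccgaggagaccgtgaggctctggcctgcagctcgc
POLA1: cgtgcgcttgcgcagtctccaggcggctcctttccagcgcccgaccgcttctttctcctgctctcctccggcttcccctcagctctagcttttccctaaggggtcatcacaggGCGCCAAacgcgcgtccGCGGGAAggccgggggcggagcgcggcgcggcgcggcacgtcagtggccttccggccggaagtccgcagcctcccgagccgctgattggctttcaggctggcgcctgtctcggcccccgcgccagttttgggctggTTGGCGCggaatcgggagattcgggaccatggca
RRM2: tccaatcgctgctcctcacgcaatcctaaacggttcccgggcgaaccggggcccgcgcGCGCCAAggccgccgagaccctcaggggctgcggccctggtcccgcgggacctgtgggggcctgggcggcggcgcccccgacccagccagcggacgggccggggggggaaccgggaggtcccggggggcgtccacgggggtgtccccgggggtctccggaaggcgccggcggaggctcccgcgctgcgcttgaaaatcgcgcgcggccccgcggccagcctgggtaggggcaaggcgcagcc
HELLS: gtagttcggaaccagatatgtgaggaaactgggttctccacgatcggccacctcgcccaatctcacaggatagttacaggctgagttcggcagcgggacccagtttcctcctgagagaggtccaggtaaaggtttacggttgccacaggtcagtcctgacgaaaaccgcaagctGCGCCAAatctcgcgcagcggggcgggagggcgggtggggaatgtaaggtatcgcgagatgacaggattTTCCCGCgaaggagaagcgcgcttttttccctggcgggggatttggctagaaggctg
RAD51AP1: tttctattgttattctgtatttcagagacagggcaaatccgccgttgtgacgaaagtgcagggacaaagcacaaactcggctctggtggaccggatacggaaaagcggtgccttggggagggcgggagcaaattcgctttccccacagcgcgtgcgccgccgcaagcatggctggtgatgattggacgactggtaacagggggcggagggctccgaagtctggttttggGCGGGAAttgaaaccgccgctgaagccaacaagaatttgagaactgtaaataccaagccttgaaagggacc
DTL: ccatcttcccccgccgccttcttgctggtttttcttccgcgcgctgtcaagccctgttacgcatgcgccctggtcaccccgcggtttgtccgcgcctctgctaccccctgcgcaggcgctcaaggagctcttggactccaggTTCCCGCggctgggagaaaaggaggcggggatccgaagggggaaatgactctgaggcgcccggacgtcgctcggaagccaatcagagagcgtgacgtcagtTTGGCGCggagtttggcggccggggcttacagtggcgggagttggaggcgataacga
In HELLS and DTL a core began 7 bases before the annotated start, in RAD51AP1 21 bases and in GINS2 31 bases before it. In the window shown for RRM2 the single core lay 192 bases before the start, farther out than in those 4 genes. RRM2 had 2 windows, and that shown was chosen by its number of cores and then by its position. The distance thus holds for that window only. POLA1 had 3 cores, 1 of them 16 bases after the start.

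The other elements searched were the CHR, TTTGAA, and the CCAAT box, CCAAT, again on both strands. The CHR letters were present in 4 of the 31 members (12.9%), close to the 14.3% of expressed genes, whereas 32 of 45 G2/M genes with a window (71.1%) had them. For the E2F core the order was the opposite, with 12 of the 45 G2/M genes (26.7%). The CCAAT box was present in 23 members (74.2%) and in 73.3% of the G2/M genes, against 44.2% of expressed genes. In 3 members a CCAAT box shared letters with an E2F core, and 22 members had one that did not. A match of letters is a description of the window and not of binding.

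The 40 genes were high or low together across the clusters. For each gene the level in a cluster was set against the unweighted mean of the other 13 clusters, as log2 with 0.1 added to both, called the log2 difference below. The median over the 40 genes was highest in cluster 6 (0.80, 1626 cells) and cluster 8 (0.63, 1107 cells). It was 0.28 in clusters 2 and 10, 0.19 in cluster 5 and 0.07 in cluster 3. Clusters 0, 11, 1 and 7 lay slightly below 0, at -0.07, -0.11, -0.17 and -0.20. The lowest medians were seen in cluster 4 (-0.44), cluster 9 (-0.74), cluster 13 (-0.83) and cluster 12 (-0.86). Median log2 differences of all 12139 genes with a mean of at least 0.05, a limit that all 40 members passed, lay between -0.05 and 0.09 in 11 of the clusters, but at -0.24 in cluster 5, -0.29 in cluster 11 and -0.51 in cluster 13. Rescaling the columns by the median ratio over genes above 0 in every cluster brought the all-gene medians to -0.01, -0.01 and -0.26 there, and the members' medians to 0.48, 0.20 and -0.66. The sign of cluster 11 thus depends on the scaling, and that of cluster 3 turned to -0.02 once clusters under 200 cells were left out.

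**Figure D1:**
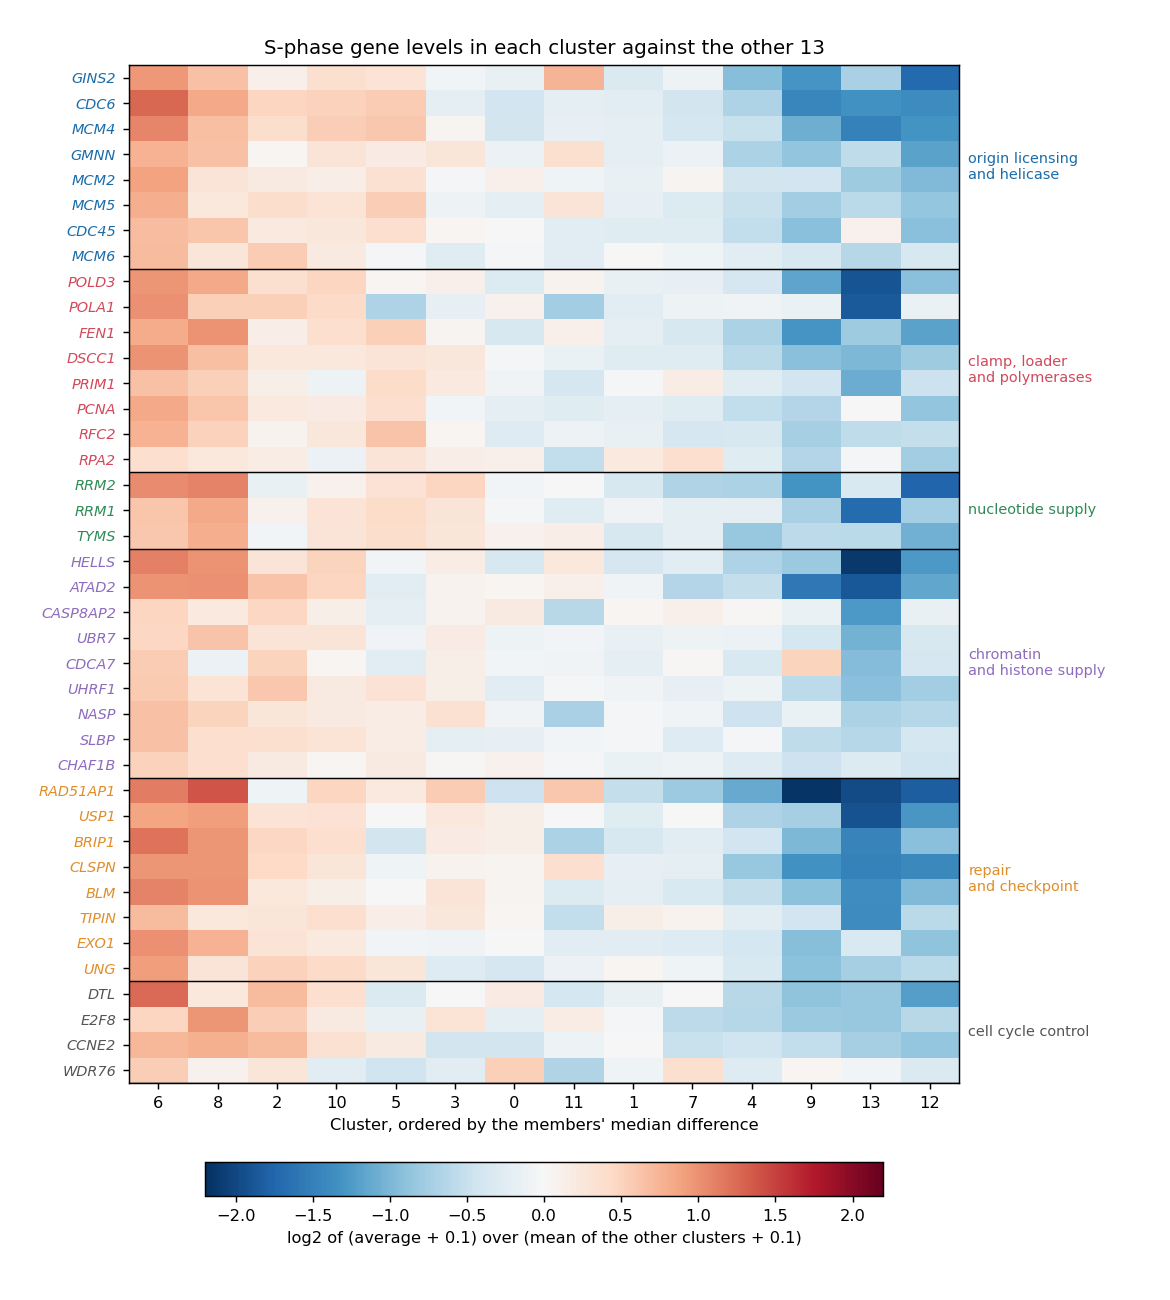
Log2 difference of each of the 40 genes (rows, grouped by role and sorted by range) in each of the 14 clusters (columns, sorted by the members' median). Red stands for a level above and blue for a level below the mean of the other clusters; the columns of clusters 6 and 8 are red almost throughout, and those of clusters 9, 13 and 12 are blue except for single genes such as CDCA7 in cluster 9 (0.50).

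Cluster 6 was above the mean of the other clusters for all 40 genes, with log2 differences from 0.37 (RPA2) to 1.27 (CDC6). In it, 10 genes were at least 2-fold higher, while 1.18% of all 12139 genes were. These were CDC6 (1.27), DTL (1.25), BRIP1 (1.20), RAD51AP1 (1.13), HELLS (1.10), BLM (1.09), MCM4 (1.08), RRM2 (1.05), EXO1 (1.01) and POLA1 (1.00). At least 1.5-fold higher were 31 of the 40, beside 4.21% of all genes. In cluster 8, 39 genes lay above the mean of the others, all except CDCA7 (-0.13). RAD51AP1 (1.38) and RRM2 (1.09) were the 2 genes at least 2-fold higher there (1.15% of all genes), and 23 were at least 1.5-fold higher (4.55% of all genes). HELLS and ATAD2 (both 1.00 after rounding) fell just short of 2-fold in cluster 8, and the count of 2 became 11 with a pseudocount of 0.01 and 8 against the median of the other clusters. The share of all genes was not counted at those settings, so these counts show only how the calls depend on the setting. Outside these 2 clusters no member was at least 2-fold higher, where between 0.0989% and 3.07% of all genes were. At 1.5-fold, 4 members were counted in cluster 2, beside 2.6% of all genes, and these were DTL and CCNE2 (both 0.69), ATAD2 (0.63) and UHRF1 (0.60). There were 2 in cluster 5, RFC2 (0.63) and MCM4 (0.60), beside 1.9% of all genes, and 2 in cluster 11, GINS2 (0.76) and RAD51AP1 (0.60), beside 4.37%.

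**Figure D2:**
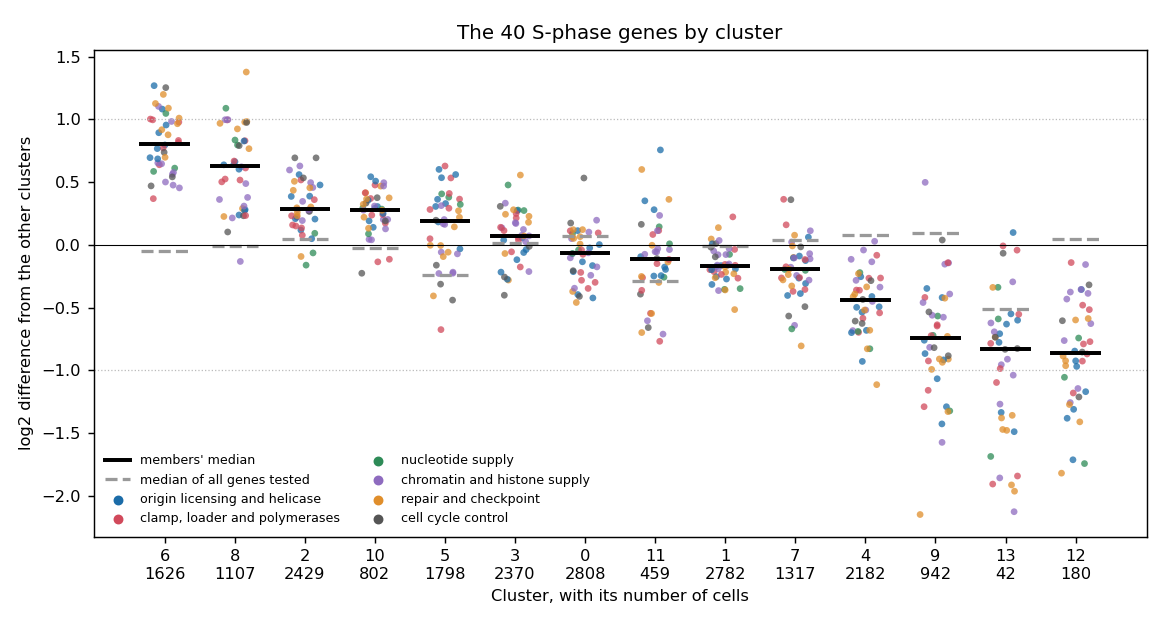
Log2 difference of the 40 genes in each cluster, 1 point per gene coloured by role, with the members' median (solid line), the median of all 12139 genes (dashed line) and dotted lines at 2-fold; cell numbers stand under the cluster numbers. In cluster 6 every point lies above 0 and in cluster 12 every point lies below it, while the dashed line stays near 0 except in clusters 5, 11 and 13.

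At the low end, all 40 genes lay below the mean of the other clusters in cluster 12 (180 cells), 39 in clusters 4 and 13, and 38 in cluster 9. In cluster 12, 13 genes were at least 2-fold lower, beside 3.13% of all genes, led by RAD51AP1 (-1.82), RRM2 (-1.74) and GINS2 (-1.71). In cluster 9 (942 cells) there were 9 such genes, beside 3.12% of all genes, with RAD51AP1 (-2.15), ATAD2 (-1.57) and CDC6 (-1.43) the lowest. RAD51AP1 (-1.11) was the only member at least 2-fold lower in cluster 4, where 1.24% of all genes were. Cluster 13 had 16 members at least 2-fold lower, but it holds only 42 cells, and 23.9% of all genes were at least 2-fold lower in it. Ribosomal protein transcripts made up 29.8% of the UMIs in cluster 13 and mitochondrial ones 6.10%, the largest shares of any cluster, and their part in its values was not tested.

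The members were alike in their order of clusters. The highest level was seen in cluster 6 for 28 genes, in cluster 8 for 11 and in cluster 2 for UHRF1, and 25 of the 40 had clusters 6 and 8 as their highest 2. The peak depended on the scaling for 9 genes. After rescaling, 6 genes peaked outside clusters 6 and 8, namely MCM5, PRIM1, RFC2, RPA2 and UHRF1 in cluster 5 and GINS2 in cluster 11, and ATAD2, RRM2 and CLSPN moved from cluster 8 to cluster 6. Cluster 13 held the lowest level of 20 genes, cluster 12 that of 11 and cluster 9 that of 7, and NASP and WDR76 were lowest in cluster 11. For 25 genes these 3 clusters, 9, 12 and 13, were the lowest 3. Spearman's rho of a gene with the mean log2 level of the other 39 members, over the 14 clusters, had a median of 0.91, and 35 genes reached 0.8. The same measure against the mean of 54 G2/M genes had a median of 0.74, and 37 of the 40 were closer to their own set. These are descriptions over 14 clusters that share libraries and normalization. WDR76 (0.31), CDCA7 (0.54), RPA2 (0.61), POLA1 (0.63) and CASP8AP2 (0.75) were the 5 genes under 0.8.

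The licensing and helicase group comprised MCM2, MCM4, MCM5 and MCM6, which are subunits of the helicase ring, CDC6, which loads it, CDC45 and GINS2, which activate it, and GMNN (geminin), which blocks reloading by binding CDT1. The 8 genes had a median log2 difference of 0.84 in cluster 6 and 0.62 in cluster 8, but of -1.07 in cluster 12. GINS2 ranged from 0.0926 UMIs per 10000 in cluster 12 over a median of 0.468 to 0.989 in cluster 6, a 10.7-fold span. Its second highest level was in cluster 11 (0.865), which set it apart from the other members of the group. CDC6 ran from 0.142 in cluster 9 over 0.433 to 1.26 in cluster 6, an 8.87-fold span, and cluster 8 came next with 0.944. MCM4 had its lowest level in cluster 13 (0.212), a median of 0.640 and its highest in cluster 6 (1.54). GMNN, which is degraded in G1 as a protein, had a narrower span at the transcript level, from 0.409 in cluster 12 over 0.974 to 1.68 in cluster 6. Among the other helicase subunits, MCM2 and MCM5 were second highest in cluster 5 (0.338 and 0.357) and not in cluster 8 (0.324 and 0.279), and MCM6 was second highest in cluster 2 (0.421). CDC45 spanned 0.0359 to 0.284, and was the only member above the mean of the other clusters in cluster 13 (log2 difference 0.10), where 4 members were after rescaling.

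The clamp, loader and polymerase group held PCNA, the loader subunit RFC2, DSCC1 of the alternative loader for cohesion, the primase subunit PRIM1, the polymerase subunits POLA1 and POLD3, the flap nuclease FEN1 and the single strand binding subunit RPA2. Its median log2 difference was 0.82 in cluster 6 and 0.57 in cluster 8. POLD3 showed the widest span of averages of the group, 16.8-fold, from 0.0543 in cluster 13 over 0.430 to 0.909 in cluster 6. Without the 42 cells of cluster 13 the span would start at 0.155 in cluster 9. POLA1 peaked in cluster 6 (1.43) with a median of 0.655, and clusters 2 and 8 followed closely with 1.04 each. Its levels in clusters 9 and 12 (both 0.649) were almost at its median, although these clusters were among the lowest for most members, and its low clusters were 13 (0.141), 11 (0.396) and 5 (0.428). FEN1 was highest in cluster 8 (0.915) before cluster 6 (0.810) and lowest in cluster 9 (0.133). PCNA spanned 0.358 (cluster 12) to 1.26 (cluster 6), with 0.705 in cluster 13, close to its median of 0.643. RPA2 had the smallest fold of all members, 2.32-fold between cluster 12 (0.475) and cluster 6 (1.10), and cluster 7 (1.10) nearly equalled its maximum. DSCC1 (0.0574 to 0.460), PRIM1 (0.0778 to 0.447) and RFC2 (0.360 to 1.10) also peaked in cluster 6, the latter 2 only as deposited, since after rescaling they were highest in cluster 5.

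The nucleotide supply group, RRM1 and RRM2 of ribonucleotide reductase and TYMS of thymidylate synthesis, was the only one of the 6 groups with a higher median in cluster 8 (0.83) than in cluster 6 (0.61). All 3 genes had their maximum in cluster 8. RRM2, the subunit whose amount limits the enzyme outside S phase, ranged from 0.130 in cluster 12 over 0.578 to 1.34 in cluster 8, 10.3-fold, and cluster 6 was almost level with 1.30, slightly above it after rescaling. RRM1 ranged from 0.149 in cluster 13 over 0.633 to 1.19. TYMS was found at 0.705 in cluster 12, at a median of 1.53 and at 2.56 in cluster 8, with 2.23 in cluster 6. In cluster 2, where 37 of the 40 genes lay above the mean of the other clusters, TYMS and RRM2 lay below it (log2 differences -0.06 and -0.16), as did RAD51AP1 (-0.09). In cluster 3 they lay above it (0.27 and 0.48).

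The chromatin and histone supply group was the largest. It held the remodeler HELLS with its partner CDCA7, UHRF1, which recognises half-methylated DNA and recruits DNMT1, the chaperones NASP and CHAF1B, SLBP, which binds histone mRNAs, CASP8AP2, which is needed for their processing, the bromodomain ATPase ATAD2 and UBR7, an E3 ligase. HELLS ranged from 0.216 in cluster 13 over 1.08 to 2.49 in cluster 6, with 2.33 in cluster 8, an 11.5-fold span. ATAD2 ran from 0.118 in cluster 13 over 0.643 to 1.30 in cluster 8, with 1.28 in cluster 6 and only 0.164 in cluster 9. NASP was present throughout, from 2.38 in cluster 11 over 3.70 to 5.84 in cluster 6. UHRF1 alone peaked in cluster 2 (0.545), by a narrow margin over cluster 6 (0.538) that was lost to cluster 5 after rescaling, and had its lowest level in cluster 13 (0.144). CDCA7 did not follow HELLS. Its level in cluster 9 (0.298) nearly reached that in cluster 6 (0.314), while cluster 8 (0.166) was below its median of 0.177. The median log2 difference of the 9 genes was 0.58 in cluster 6 and 0.38 in cluster 8, the smallest among the 6 groups in both.

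The repair and checkpoint group had the highest medians of the 6 groups in both clusters, 0.99 in cluster 6 and 0.95 in cluster 8. It held RAD51AP1, USP1, which removes ubiquitin from PCNA and FANCD2, the helicases BLM and BRIP1, the fork proteins CLSPN and TIPIN, the nuclease EXO1 and the uracil glycosylase UNG. RAD51AP1 showed the largest log2 range of all 40 genes, 3.29 with 0.1 added to each level. It stood at 0.195 in cluster 9, at 0.939 in the median cluster and at 2.78 in cluster 8, with 2.38 in cluster 6, 1.70 in cluster 11 and 1.66 in cluster 3. USP1 ranged from 0.233 in cluster 13 over 1.08 to 2.02 in cluster 8, and CLSPN from 0.313 over 0.990 to 1.91 in clusters 6 and 8 alike. BRIP1 (0.120 to 1.12), BLM (0.0597 to 0.671), EXO1 (0.0277 to 0.343), TIPIN (0.0726 to 0.566) and UNG (0.173 to 0.780) all peaked in cluster 6. UNG and TIPIN were lower in cluster 8 (0.496 and 0.396) than in cluster 10 (0.546 and 0.445).

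The last group comprised DTL, which targets CDT1 for destruction on PCNA-bound DNA, CCNE2 (cyclin E2), which drives entry into S phase, the repressor E2F8 and WDR76. DTL reached 1.05 in cluster 6 and 0.719 in cluster 2, against a median of 0.400, 0.513 in cluster 8 and 0.138 in cluster 12. CCNE2 was measured at 0.0142 in cluster 12, at a median of 0.0701 and at 0.228 in cluster 8, 0.218 in cluster 6 and 0.209 in cluster 2, so that 3 clusters shared its upper end. E2F8 reached 0.217 in cluster 8 and 0.142 in cluster 2, and was listed at 0 in the 42 cells of cluster 13, where the smallest average above 0 was 0.00847. WDR76 departed most from the other genes. Its levels in cluster 0 (0.147) and cluster 7 (0.122) were close to that in cluster 6 (0.149), with a low of 0.0148 in cluster 11.

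**Figure D3:**
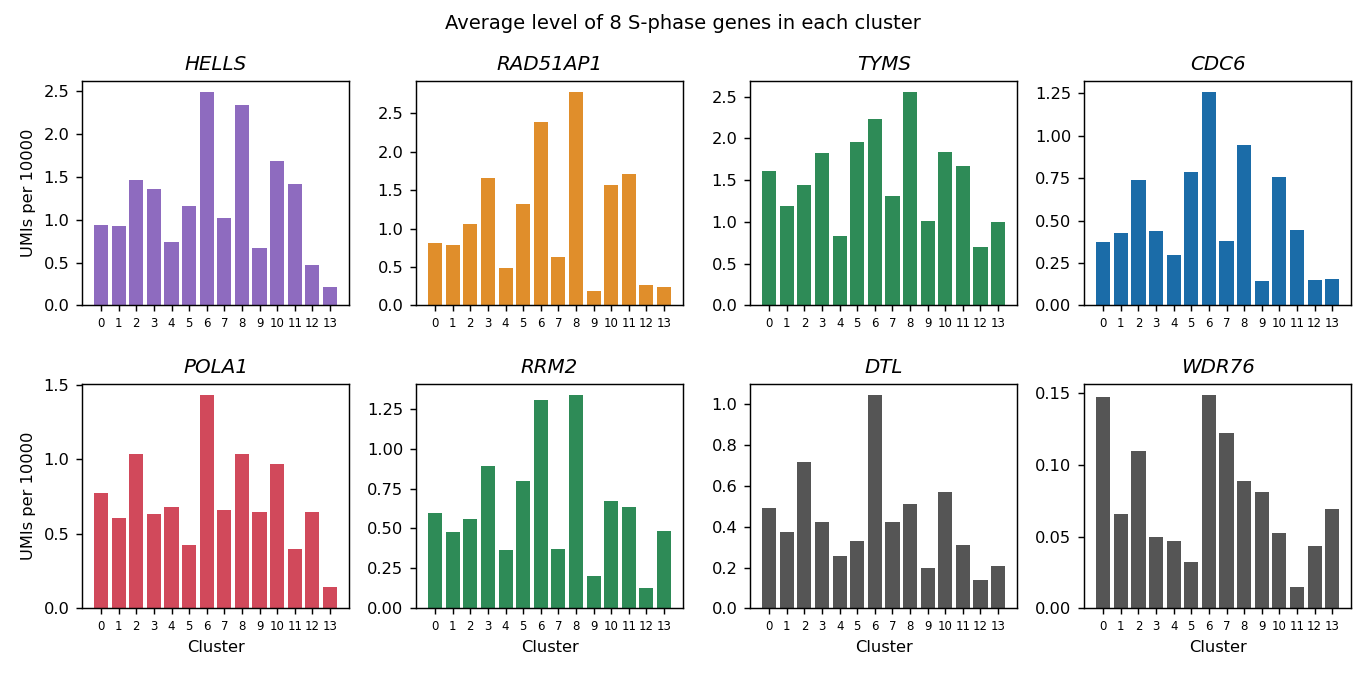
Average level (UMIs per 10000, deposited averages, no error available) of 8 of the genes in each of the 14 clusters, with separate vertical axes that start at 0. HELLS, CDC6, POLA1 and DTL stand highest in cluster 6, RAD51AP1, TYMS and RRM2 in cluster 8, and WDR76 shows bars of nearly equal height in clusters 0 and 6.

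Clusters 6 and 8 were then set against each other, a comparison chosen with their levels known. Of the 40 genes, 29 were higher in cluster 6 and 11 in cluster 8, with a median log2 ratio of 0.17, while 5245 of all 12139 genes were higher in cluster 6 and their median was -0.03. All 8 licensing and helicase genes were higher in cluster 6 (median 0.37, from 0.07 for CDC45 to 0.55 for MCM2). DTL (0.90), CDCA7 (0.64) and UNG (0.56) differed most in this direction. On the side of cluster 8 stood all 3 nucleotide supply genes (RRM1 -0.20, TYMS -0.19, RRM2 -0.04) together with E2F8 (-0.45), RAD51AP1 (-0.21), FEN1 (-0.16) and UBR7 (-0.15). CCNE2, USP1, ATAD2 and CLSPN lay between -0.05 and 0. After rescaling 32 genes were higher in cluster 6, among them RRM2, ATAD2 and CLSPN. These ratios are small, and no error between cultures is known for them. Outside the 40, the nucleotide supply genes did not lean to cluster 8, since 6 of 10 were higher in cluster 6 (median 0.05). Of 17 other licensing and helicase genes, 11 were higher in cluster 6 (median 0.17). Among G2/M genes, 49 of 54 were higher in cluster 8 (median log2 ratio of cluster 6 over cluster 8 -0.40), among them CDK1, the kinase that starts mitosis (1.01 in cluster 6 and 1.61 in cluster 8).

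Clusters 2 and 3 had similar summed levels of the 40 genes, 29.1 and 26.7 UMIs per 10000, but single genes differed in both directions. Higher in cluster 2 were 31 of the 40 (median log2 ratio 0.21), beside 6759 of all 12139 genes (median 0.03). The 31 were led by CCNE2 (log2 ratio 1.01), MCM6 (0.77), UNG (0.73), DTL, CDC6 and POLA1 (0.64 each) and SLBP (0.52). Higher in cluster 3 were RAD51AP1 (-0.59), RRM2 (-0.59), TYMS (-0.31), GMNN (-0.21), RRM1 (-0.17), PRIM1, NASP, BLM and DSCC1. Again all 3 nucleotide supply genes stood on one side, and 7 of the 8 licensing and helicase genes on the other. Genes of these roles outside the 40 did not show this split. Of 17 other licensing and helicase genes, 8 were higher in cluster 2 and 9 in cluster 3 (median -0.01). Of 10 other nucleotide supply genes, 4 were higher in cluster 2 and 6 in cluster 3 (median -0.04). After rescaling 28 of the 40 were higher in cluster 2. All 54 G2/M genes were higher in cluster 3 (median log2 ratio of cluster 2 over cluster 3 -1.75). TOP2A, the decatenating topoisomerase, was at 0.544 in cluster 2 and 4.83 in cluster 3, and CENPF, a kinetochore protein, at 0.904 and 6.12.

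**Figure D4:**
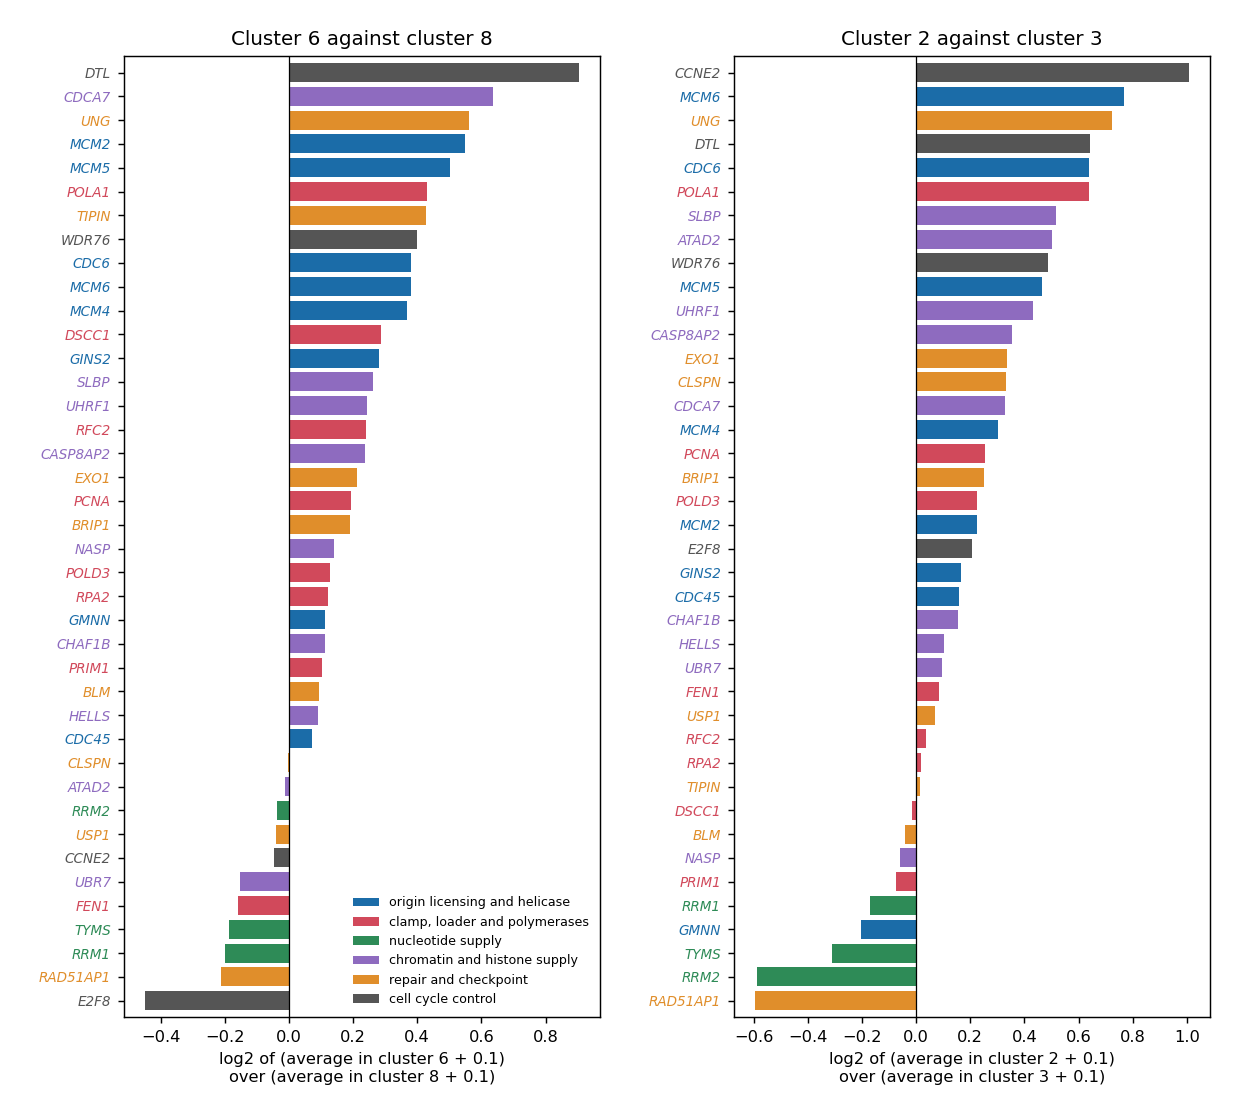
Log2 ratio of the level of each of the 40 genes between 2 clusters (0.1 added to each average), sorted and coloured by role, for cluster 6 over cluster 8 (left) and cluster 2 over cluster 3 (right). Blue bars of licensing genes lie to the right in both panels except GMNN in the second, and the green bars of the nucleotide supply genes lie to the left in both, that of RRM2 in the first panel only without rescaling.

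Summed over the 40 genes, the level ran from 11.2 UMIs per 10000 in cluster 13 and 11.5 in cluster 12 to 39.1 in cluster 8 and 43.0 in cluster 6. The sum of the 54 G2/M genes followed another order, from 20.2 in cluster 9 to 64.4 in cluster 8 and 115.5 in cluster 3. Set as a ratio, the S-phase sum was 0.890 of the G2/M sum in cluster 6, 0.862 in cluster 2 and 0.751 in cluster 10, but 0.231 in cluster 3 and 0.395 in cluster 13. Such sums rest most on abundant genes. Without the 3 members of highest mean (NASP, TYMS and HELLS) these ratios were 0.671, 0.640, 0.549, 0.162 and 0.267. The ratio of cluster 9 fell from 0.680, above that of cluster 8 (0.607), to 0.423, below it (0.449). In cluster 3, 47 of the 54 G2/M genes were at least 2-fold above the other clusters and none of the 40 S-phase genes was. Clusters 9 and 12 were low for both sets, with G2/M medians of -1.10 and -1.08. Of 14 G1 and arrest genes, 10 in cluster 9 and 11 in cluster 12 lay above the mean of the other clusters, as did 11 in cluster 4. Their medians were 0.30, 0.41 and 0.27, and those of all genes there were also above 0 (0.09, 0.05 and 0.08). They included BTG2, an antiproliferative gene (log2 differences 1.67 and 1.24 in clusters 9 and 12), and CDKN1C, which encodes the CDK inhibitor p57 (0.57 and 2.16). The CDK inhibitor genes CDKN1B (-0.17 and -0.67) and CDKN2D (-0.44 and -0.06) went the other way. CCND2, cyclin D2, lay at 0.42 in cluster 9 and 2.09 in cluster 12. CCND1, cyclin D1, lay at -0.95 in cluster 9 but at 0.70 in cluster 12.

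**Figure D5:**
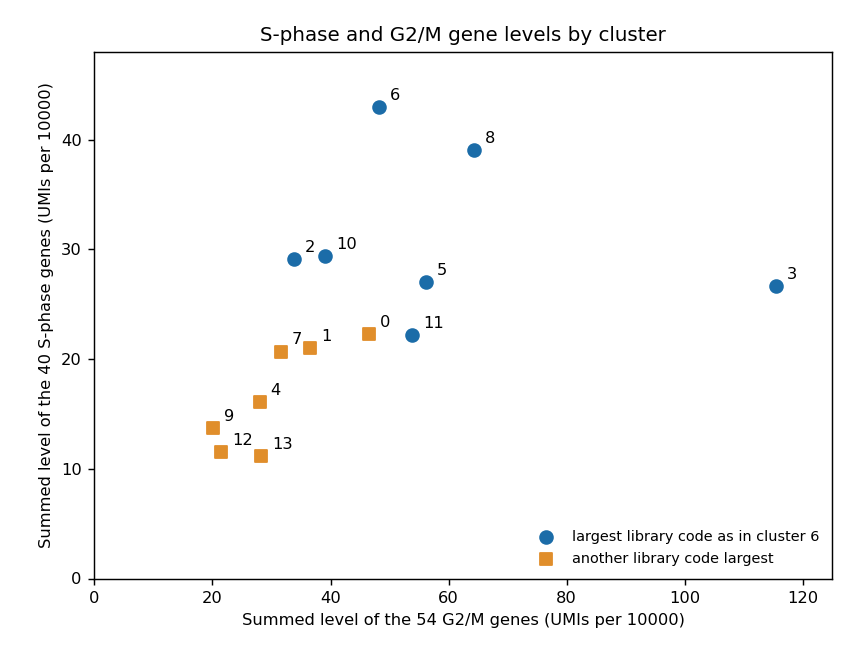
Summed level of the 40 S-phase genes against that of the 54 G2/M genes (both in UMIs per 10000) for the 14 clusters, labelled by number; blue circles have the same largest library code as cluster 6 and orange squares another. Clusters 6 (43.0) and 8 (39.1) stand at the top, cluster 3 lies far to the right (115.5) at a middle S-phase level, and the 7 squares lie at or below 22.3.

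Other genes of the replication machinery, 82 genes with the same roles that are not among the 40, were also highest in clusters 6 and 8, with smaller medians. As deposited, their order of the remaining clusters was another, with cluster 3 next (0.20) and cluster 13 lowest (-0.77). That difference depended on the scaling. After rescaling, cluster 5 was next (0.35) and cluster 12 lowest (-0.70), the same clusters as for the 40 genes (0.48 and -0.95). Of the 81 with a mean of at least 0.05, 78 lay above the other clusters in cluster 6 (median 0.53) and 75 in cluster 8 (median 0.46). At least 2-fold higher were 6 and 3 of them, and at least 1.5-fold higher 35 and 24. MCM10, which activates the helicase (1.10), CHAF1A, the large subunit of the histone chaperone CAF-1 (1.07), and WDHD1 (1.06) led in cluster 6. ORC6, an origin recognition subunit, led in cluster 8 (1.16, from 0.272 UMIs per 10000 in cluster 9 to 2.76). In clusters 9, 12 and 13, 14, 19 and 28 of the 81 were at least 2-fold lower. TK1, the thymidine salvage kinase, lay at -1.82 in cluster 9 and -1.71 in cluster 12, and MYBL2, which encodes B-MYB, at -1.94 in both. Against the trend of the list, 15 of the 81 lay above the mean of the other clusters in cluster 9 and 11 in cluster 12. Among them was ATR, the replication stress kinase, with 0.76 and 0.81. In the promoter windows, 41 of 73 of these genes had an E2F core (56.2%).

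The share of cells with at least 1 UMI of a gene was taken from the deposited marker table, which lists a gene in a cluster only above a minimum fold change, so that unlisted values are unknown. In cluster 6, 25 of the 40 genes were listed, with shares from 73.8% (DSCC1) to 99.8% (NASP) and a median of 91.8%, against a median of 61.4% in all other cells. In cluster 8, 18 were listed, with a median of 94.1% against 63.6%. Genes were listed in the clusters where their level was raised, so the direction of these medians was largely fixed beforehand. They describe the listed genes and are no separate evidence that the members were high there. The numbers of cells below were recovered from these shares, which are rounded, and may be off by 1. CDC6 was detected in about 1493 of 1626 cells of cluster 6 (91.8%, exact 95% Clopper-Pearson interval 90.4 to 93.1) and in 48.9% of the other cells. RAD51AP1 was detected in about 1100 of 1107 cells of cluster 8 (99.4%, 98.7 to 99.7) and in 62.3% of the others. The intervals cover counting error only, and no cluster was at hand that should lack these genes and give the background of free RNA. The order of shares and averages did not always match. In cluster 5, RFC2 and MCM4 were listed with 23.6% and 23.9% of cells, against 72.8% and 70.5% elsewhere, although their averages of 0.998 and 1.12 were above their medians of 0.575 and 0.640. UMI totals per cell were not analysed here.

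Libraries were distributed unevenly over the clusters. Cells were labelled by 3 codes, and no sample label names these, so that no code could be assigned to a cell line. The code that was largest in cluster 6 (62.1% of its cells) held 40.8% of all cells, and it was also the largest in clusters 2, 3, 5, 8, 10 and 11. In the 7 clusters where another code was largest, the median log2 difference of the 40 genes was below 0, and clusters 12 and 13 held no cell of that code. Cluster 11, with the largest share of it (86.3%), also had a median below 0 as deposited (-0.11), but of 0.20 after rescaling. On the rescaled values the median was above 0 in every cluster led by that code and below 0 in every other cluster. Cluster state and library cannot be told apart for these genes. All 9 listed EC genes with a mean of at least 0.05 lay above the mean of the other clusters in cluster 6 (median 1.28), among them POU5F1 at 3.96 UMIs per 10000. Of these, 8 had their highest level there, and TDGF1 had it in cluster 8 (1.18). In cluster 8, where the S-phase genes were almost as high, 3 of the 9 were (median -0.22) and SOX2 was at 0.121. SOX17, the gene targeted by the activation, was highest in clusters 0 (21.0), 7 (12.4) and 13 (8.52), whose S-phase medians were -0.07, -0.20 and -0.83. Cluster 6 followed with 4.54, and SOX17 was at 0.137 in cluster 9 and 0.184 in cluster 12, where the S-phase genes were also low. Other listed endoderm and YST genes had another order. Of 5 with a mean of at least 0.05, 3 lay above the mean of the other clusters in cluster 8 (median 0.72). These were CER1 (1.84), GATA6 (1.74) and GATA4 (0.72), while APOA1 (-1.33) and SOX17 (-3.26) lay below it. In cluster 6, 1 of the 5 lay above it (median -0.49). The part of the library, of the EC state, of SOX17 and of the other endoderm genes in the levels of the 40 genes was not tested.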

How the data were processed

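Droplet libraries, 1 for each EC line, were taken on day 8. Titles gave the line, since for 1 sample another label named it differently. Per the submitters' processing notes, Cell Ranger 7.0 (GRCh38) and Seurat 4.1.1 were used. The study's methods name aggregation to equal depth, removal of poor cells and doublets, SCTransform and graph-based clustering, which fix the cells compared. The average expression table deposited by the authors holds mean UMI counts per 10000 for each cluster. The authors' cell counts per cluster and library code, and the deposited fraction of cells with a UMI, were used as given. Their fold changes and p-values for cluster markers were not used. The files give depth only as cells per cluster.

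The members and lists were chosen with earlier results of these data known. Log2 differences used a pseudocount of 0.1 and genes with a mean of at least 0.05, and were tested on simulated data. No test was made. By rule, the 2 members of a role with the highest mean, the 2 with the widest range, and a member peaking outside clusters 6 and 8 were described in full. Of the other replication genes, the 3 with the largest difference in cluster 6 were named, and this rule was not kept for other clusters and lists. Other genes and the pairs of clusters were chosen after their values were seen. Rescaling divided columns by the median ratio over 15721 genes above 0 in every cluster. Promoter windows came from RefSeq. Software was numpy 2.4.6, scipy 1.17.1, pandas 2.3.3 and matplotlib 3.10.9 under Python 3.11.15.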

Additional observations from a re-analysis of the deposited data

How the results depend on the processing

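A median counted as moved when it changed by 0.1 or more on the log2 scale, and a count when it changed by over 1.5 times. Cluster 6 had the highest and cluster 8 the second highest median in each setting run. With a pseudocount of 0.01 the medians of clusters 6, 8 and 12 were 0.98, 0.73 and -1.25, with a pseudocount of 1 they were 0.37, 0.22 and -0.23, and in cluster 6 the number of genes past 2-fold was 19 and 0. Among the 17 genes whose mean reached 0.5, the medians of clusters 8 and 12 were 0.79 and -1.14, and 6 genes reached 2-fold in cluster 6. Against the median of the other clusters cluster 12 was at -0.74. With the other clusters weighted by cells 5 genes reached 2-fold in cluster 6, and 3 did without the clusters under 200 cells. At 1.5-fold the count was 31, beside 4.21% of all genes. In cluster 8 the count of 2 ranged from 0 (pseudocount 1) to 11 (pseudocount 0.01). The share of all genes past 2-fold was counted at the main setting only. The 2-fold counts at other settings therefore show how the calls depend on the setting, and are no result about the members. Without clusters under 200 cells, cluster 12 itself has no value, cluster 9 was lowest (-0.88), and the median of cluster 3 changed sign to -0.02. Rescaling changed the sign of cluster 11, from -0.11 to 0.20, and raised cluster 5 from 0.19 to 0.48. The lowest cluster was 13 with either other pseudocount, the limit of 0.5 on the mean, cell weighting or the median of the others. No paired analysis was possible because the values come from no test and the averages carry no replicate numbers.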
